A study of Mus musculus with 6 samples.

Results

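The 9 genes described here encode cytoplasmic tyrosine kinases: the Src family members Src, Lyn, Fgr, Fyn, Lck and Yes1, the kinases Syk and Btk that act beside them, and Csk, the kinase that restrains the Src family. They were taken by gene symbol, as a set chosen with earlier results of these data known, from a table of RNA sequencing counts for 21604 gene symbols. Of the 9, 8 reached the level needed for testing among 13014 tested genes, and Yes1 did not. The cells were RAW264.7, a mouse macrophage-like line derived from a tumour induced by Abelson leukaemia virus, labelled wild type and, as cell type, bone marrow macrophage. In the first group, 3 libraries came from cells kept for 24 h with 100 ng/mL of lipopolysaccharide (LPS), an endotoxin of Gram-negative bacteria to which macrophages respond. In the second group, 3 libraries came from cells that received the same LPS dose together with PE-CUR at 2 mg/mL, also over 24 h. The series title speaks of emulsions loaded with curcumin, a plant polyphenol, and PE-CUR is the name the labels use for the treatment. All 6 libraries are thus from LPS-treated cells, and no library of untreated cells, empty emulsion or free curcumin was analysed here. The design text asks about inflammation and osteoclasts, the bone-resorbing cells that this line can form. The treatments used here to group the libraries are LPS and PE-CUR, so the osteoclast roles named below are background and not results on osteoclasts.

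Src family kinases sit on the inner face of the plasma membrane and are held inactive when a tyrosine near their end is phosphorylated and folds back on the kinase. Csk phosphorylates that tyrosine, and the phosphatase CD45, encoded by Ptprc, removes the phosphate. In macrophages active Src family kinases phosphorylate the ITAM motifs of receptor adaptors, Syk docks there, and Btk and phospholipase C gamma 2 act further down. Mice without Src have dense bones because their osteoclasts do not resorb, and Syk and Btk also take part in the formation of osteoclasts.

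Each library held from 28530750 to 35276533 counts, where 1 CPM (counts scaled to library size) stands for 27.7 to 36.2 counts after scaling. Libraries correlated at 0.9848 or more within a group and at 0.9552 or less between groups (Pearson's r of log2 CPM across genes, which are not independent replicates). Of 10 macrophage markers, 9 exceeded 1 CPM in a library, and Mertk reached 0.964 CPM at most. Their sum was 11456 to 11925 CPM in LPS and 9449 to 10405 CPM with PE-CUR. Single markers went either way. Adgre1 was lower with PE-CUR (78.0 to 92.8 CPM in LPS, 24.0 to 31.1 CPM with PE-CUR) and Csf1r was higher (848 to 942 CPM, 1075 to 1324 CPM). The 10 hepatocyte markers, Alb (albumin) first, summed to 77.7 to 94.8 CPM in the LPS libraries and to 94.8 CPM in LPS plus PE-CUR replicate 3, but to 4.09 and 3.86 CPM in LPS plus PE-CUR replicates 1 and 2. The part of these transcripts in the results below was not tested. Each tested kinase was also compared within the 4 libraries that hold these transcripts. That comparison was chosen after seeing the data and sets 3 LPS libraries against 1 treated library, LPS plus PE-CUR replicate 3, whose spread is taken from the LPS libraries. Its values are therefore given as descriptions.

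The 42 bases that end the coding sequence of each of the 6 Src family members described, before the stop codon, are printed here because they hold the codon of the tyrosine that Csk acts on (capitals). They come from GENCODE M21 transcripts of the build GRCm38, the assembly of mm10.
Src: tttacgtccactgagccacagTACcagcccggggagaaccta
Yes1: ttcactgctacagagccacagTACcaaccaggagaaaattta
Fyn: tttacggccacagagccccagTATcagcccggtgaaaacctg
Fgr: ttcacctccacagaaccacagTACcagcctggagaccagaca
Lyn: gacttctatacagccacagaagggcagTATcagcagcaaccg
Lck: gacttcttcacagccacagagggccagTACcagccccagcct

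In Src, Yes1, Fyn and Fgr 6 codons follow the tyrosine codon, and in Lyn and Lck 4 codons follow it. The tyrosine is codon 529 of 535 in Src and codon 505 of 509 in Lck, counted from 1 at the annotated start. Proteins translated from these coding sequences were 55.1% (Fgr and Lck) to 76.3% (Src and Yes1) identical among these 6, over aligned residues. Csk was 42.3%, Btk 38.4% and Syk 31.2% identical to Src. The longest run of identical bases between any pair of the 9 coding sequences was 23 bases (Lyn and Lck, and Src and Fgr), which bears on how far reads of these genes could be confused.

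With PE-CUR, transcripts of Src, Fgr, Fyn and Syk fell, and transcripts of Csk, Btk and Lck rose. Lyn did not pass the test and Yes1 was close to absent. Src stood apart in size: it fell 5.81-fold, while the other 6 that passed moved by 1.37-fold to 1.73-fold. In all, 3 members rose and 4 fell in edgeR's quasi-likelihood test, with p-values adjusted by Benjamini-Hochberg over all 13014 genes and a threshold of 0.05 (n = 3 per group throughout). In the same fit 63.4% of all genes tested were called, 30.8% as higher and 32.7% as lower, so a call by itself sets none of these kinases apart. The scaled CPM of the groups did not overlap for all 8 tested members, which held for 69.0% of all genes tested. Over all tested genes the absolute log2 fold change had a median of 0.44, against which Fyn (-0.49), Syk (-0.52) and Lck (0.45) were of ordinary size. Src ranked 387 of 13014 by absolute log2 fold change. These are shares of each library, and less RNA per cell cannot be told apart from fewer cells that express a gene.

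**Figure D1:**
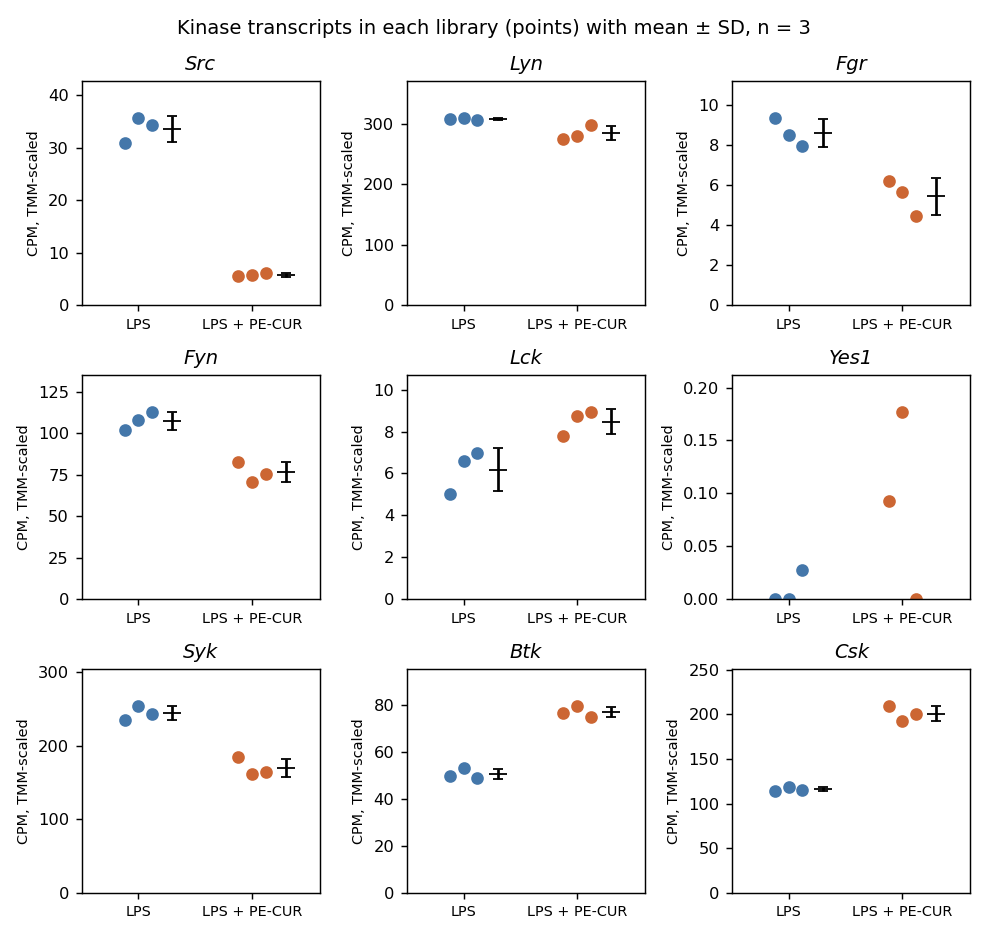
TMM-scaled CPM of the 9 kinases in each of the 6 libraries (points), with the mean and SD of 3 libraries as black bars except for Yes1; each panel has its own axis from 0. Relative to its own axis Src shows the widest gap, with 30.9 to 35.6 CPM in LPS and 5.48 to 6.21 CPM in LPS plus PE-CUR, and Yes1 stays below 0.2 CPM.

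Src, the founding member of the family and the kinase that osteoclasts need for resorption (chromosome 2, 157423906 to 157471838, build GRCm38.p6), stood at 30.9, 35.6 and 34.4 CPM in the 3 LPS libraries. With PE-CUR its level was 5.48, 5.68 and 6.21 CPM. The groups were far apart, and each group was tight. The log2 fold change was -2.54 (SE 0.10, 95% interval -2.75 to -2.33, edgeR adjusted p = 2.53e-08, n = 3 against 3). The raw counts behind it were 1005 to 1244 against 172 to 193, so counting error is small beside the difference. Within the 4 libraries that hold hepatocyte transcripts the Src log2 fold change was -2.38, with 1 treated library.

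The 250 bases before an annotated start of Src and of Csk, the members that fell and rose most, are printed for context, from the RefSeq promoter table of GRCm38.p6. Capitals mark the letters GAGGAA, the core recognised by the myeloid factor PU.1, and GGGCGG, the core recognised by Sp1, on either strand. The Src window is chr2:157424043-157424292 on the plus strand, which lies inside the gene's RefSeq span, before a start downstream of the span's first base. The Csk window is chr9:57653632-57653881 on the minus strand, the first of 2 Csk windows in the table.
Src: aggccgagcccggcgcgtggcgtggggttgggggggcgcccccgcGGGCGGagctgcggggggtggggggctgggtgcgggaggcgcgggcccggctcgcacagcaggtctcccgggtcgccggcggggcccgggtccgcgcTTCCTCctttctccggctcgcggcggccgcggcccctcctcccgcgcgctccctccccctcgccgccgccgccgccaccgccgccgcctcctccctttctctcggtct
Csk: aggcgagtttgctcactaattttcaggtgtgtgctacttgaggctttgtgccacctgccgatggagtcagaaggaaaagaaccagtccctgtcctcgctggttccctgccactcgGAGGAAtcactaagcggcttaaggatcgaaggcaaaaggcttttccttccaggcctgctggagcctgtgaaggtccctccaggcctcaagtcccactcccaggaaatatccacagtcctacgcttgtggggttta

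With 50 further bases after the start, the Src window held 82.3% G and C, the printed Csk window 56.0%, and the median over all 32851 windows of the table was 52.7%. GAGGAA lay at position -108 in Src and at position -135 in the printed Csk window, counted from the start. The second Csk window, not printed, held 66.3% G and C, 3 matches of GAGGAA and 1 of GGGCGG. Windows were found for 8 members, all but Lyn, and 11 windows in all, as Lck, Syk and Csk had more than 1 each. GAGGAA was in 7 of these 11, against 28.3% of all windows. GGGCGG was in 5 of 11, against 35.7%, and CCGGAAG, an ETS factor word that shares GGAA with the first, in 1 of 11, against 8.86%. TGACTCA, the AP-1 word, and CACGTG, an E-box, were in 0 of 11, against 5.20% and 7.15%. Windows with GAGGAA belonged to members that fell (Src, Fgr, Syk) and to members that rose (Lck, Btk, Csk). These are matches of letters and say nothing of binding.

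Fyn, a broadly expressed family member known from T cells and brain (chromosome 10, 39369743 to 39565381), stood at 102, 108 and 113 CPM in LPS and at 82.9, 70.8 and 75.4 CPM with PE-CUR. Every library with PE-CUR was below every LPS library (edgeR adjusted p = 1.26e-04, log2 fold change -0.49 with an SE of 0.07). Fgr, a member restricted largely to myeloid cells (chromosome 4, 132974095 to 133001893), was low in all libraries. It stood at 9.34, 8.53 and 7.96 CPM in LPS and at 6.22, 5.65 and 4.44 CPM with PE-CUR, from 280 to 304 and from 123 to 202 counts. Its log2 fold change was -0.66 (SE 0.15, edgeR adjusted p = 0.00283).

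Lyn, the family member that both starts and restrains signalling in myeloid cells (chromosome 4, 3678068 to 3791612), held 308, 309 and 305 CPM in LPS and 275, 280.3 and 297 CPM with PE-CUR. The groups did not overlap, but the difference missed the threshold (edgeR adjusted p = 0.0823, log2 fold change -0.11, 95% interval -0.23 to 0.003). It passed as lower in 5 of the alternatives with more than 1 treated library, among them library size alone (-0.17, edgeR adjusted p = 0.0153). Within the 4 libraries that hold hepatocyte transcripts the Lyn value was 0.005.

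Lck, best known as the kinase of the T cell receptor (chromosome 4, 129548344 to 129573641), was present at a low level in this macrophage line. It stood at 5.01, 6.58 and 6.97 CPM in LPS and at 7.79, 8.72 and 8.92 CPM with PE-CUR, from 163 to 252 and from 247 to 296 counts. The groups did not overlap, with LPS replicate 1 lowest (edgeR adjusted p = 0.0211, log2 fold change 0.45 with an SE of 0.15). Without LPS replicate 1 the value was 0.36 and did not pass (edgeR adjusted p = 0.0548). The T cell markers found, 11 of 13 listed, summed to 60.5 to 68.7 CPM in LPS and to 19.6 to 21.7 CPM with PE-CUR. Cd5, Cd28 and Lat made up most of that sum, while Cd3g, Cd4, Cd8a and Zap70 had 0 to 2 counts in every library and Cd3d at most 11. A relation of these markers to Lck was not tested.

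Yes1, a widely expressed family member (chromosome 5, 32611171 to 32687066), gave 0, 0 and 1 counts in LPS replicates 1 to 3, against 3, 6 and 0 counts with PE-CUR. A count of 0 allows up to 0.0850 to 0.105 CPM in these libraries (3 counts, counting error only). Yes1 therefore fell below the filter on low counts, and the groups overlap. With no filter it did not pass (edgeR adjusted p = 0.0849). Of the other genes related to Src, Blk, a B cell kinase, had a total of 1 count over the 6 libraries, and Srms and Ptk6 were too low to test. Frk, a more distant relative, fell 15.3-fold from 4.75 ± 0.523 to 0.301 ± 0.147 CPM (mean ± SD, n = 3; edgeR adjusted p = 1.16e-06).

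Csk, which switches the Src family off (chromosome 9, 57626646 to 57653631), moved the other way from Src. It stood at 114, 119 and 115 CPM in LPS and at 209, 193 and 200.3 CPM with PE-CUR, from 3722 to 4172 and from 5544 to 6801 counts. Each library with PE-CUR exceeded each LPS library by more than 1.5 times. The log2 fold change was 0.79 (SE 0.06, 95% interval 0.66 to 0.91, edgeR adjusted p = 6.89e-07).

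Syk, which docks on phosphorylated ITAM motifs (chromosome 13, 52582610 to 52648792), stood at 235, 254 and 243 CPM in LPS and at 184, 162 and 164 CPM with PE-CUR. It fell in every treated library relative to every LPS library (edgeR adjusted p = 3.71e-05, log2 fold change -0.52 with an SE of 0.06). Btk, the Tec family kinase that activates phospholipase C gamma 2 (chromosome X, 134542334 to 134583628), stood at 49.6, 53.2 and 48.9 CPM in LPS and at 76.4, 79.5 and 74.99 CPM with PE-CUR. It rose with no overlap of the groups (edgeR adjusted p = 9.99e-06, log2 fold change 0.61 with an SE of 0.06). Syk and Btk, which act in the same chain, thus moved in opposite directions. Of 7 B cell markers found, Cd22 alone exceeded 1 CPM. Their sum was 3.78 to 6.03 CPM in LPS, of which Cd22 held 2.53 to 4.82 CPM, and 0.993 to 1.24 CPM with PE-CUR. A relation of these markers to Btk was not tested.

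**Figure D2:**
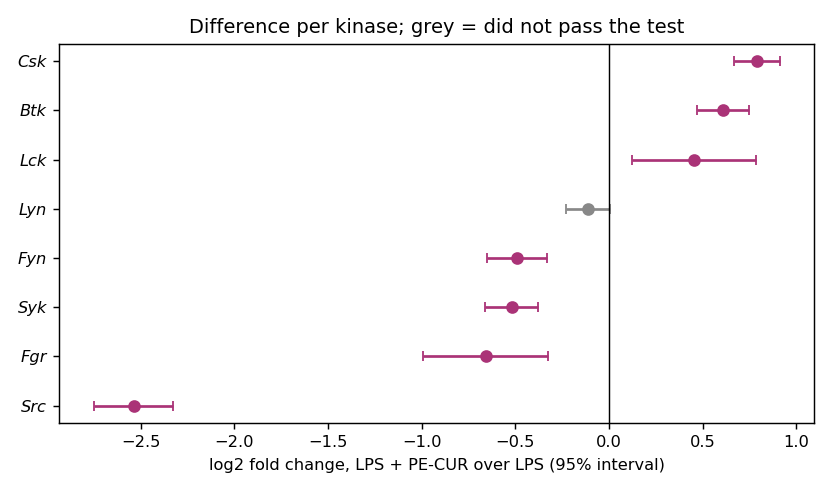
Log2 fold change of LPS plus PE-CUR over LPS with 95% intervals from the edgeR fit for the 8 tested kinases, in order from Csk (0.79) to Src (-2.54). Lyn, in grey, did not pass at an adjusted p of 0.05.

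Among the other Tec family kinases, Tec fell from 68.8 ± 2.42 to 46.4 ± 0.528 CPM (edgeR adjusted p = 1.21e-05, a log2 fold change of -0.57). Txk, a Tec relative of T cells, rose from 2.08 ± 0.408 to 5.11 ± 1.01 CPM (edgeR adjusted p = 3.12e-04, a log2 fold change of 1.30). The Syk relative Zap70 and the Tec relative Bmx had at most 1 count per library and were not tested.

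Levels between genes were compared per length, on the deposited FPKM scale (fragments scaled to gene length and library size), which carries no TMM factor. In LPS the order by mean FPKM was Lyn (62.7 ± 0.0548), Csk (26.8 ± 0.515), Syk (20.4 ± 0.749), Btk (17.7 ± 0.728), Fyn (10.4 ± 0.574) and Src (7.51 ± 0.549). Lck (2.63 ± 0.448) and Fgr (2.18 ± 0.168) followed, with overlapping libraries, and Yes1 came last. With PE-CUR the order was Lyn (55.7 ± 1.85), Csk (44.7 ± 2.88), Btk (26.0 ± 0.802), Syk (13.7 ± 1.32), Fyn (7.15 ± 0.743) and Lck (3.46 ± 0.173). Fgr (1.33 ± 0.243) and Src (1.24 ± 0.0672) then overlapped, and Yes1 was again last. Btk stood below Syk in every LPS library and above it in every library with PE-CUR, and Src went from above Lck and Fgr to below Lck.

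**Figure D3:**
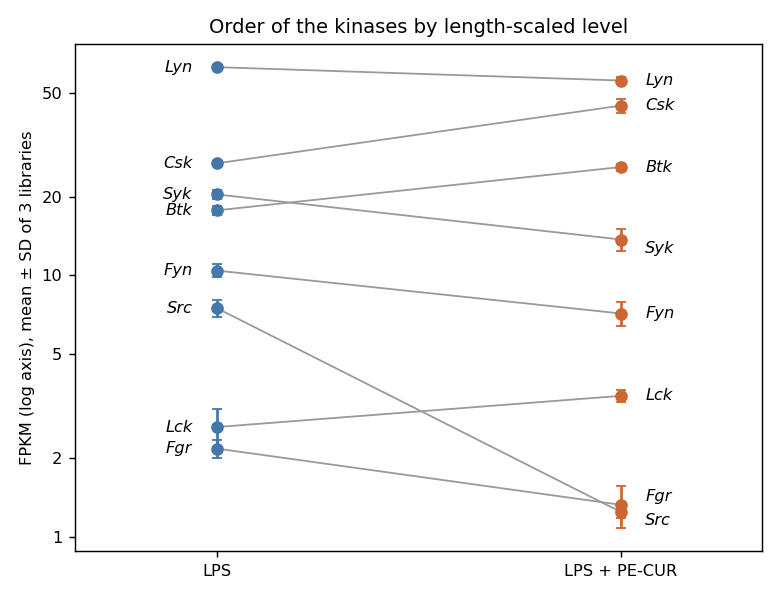
Mean FPKM ± SD of 3 libraries on a log axis for 8 of the kinases in LPS (left) and LPS plus PE-CUR (right), joined per gene; Yes1, at or near 0, is left out. The lines of Src (7.51 to 1.24 FPKM) and of Syk and Btk cross others, while Lyn stays first and Csk second.

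Of the FPKM summed over 7 Src family kinases (Src, Lyn, Fgr, Fyn, Lck, Yes1 and Blk), Lyn held 72.5% to 74.7% in the LPS libraries and 79.8% to 81.6% in those with PE-CUR. Src held 8.19%, 9.21% and 8.94% in LPS and 1.74%, 1.80% and 1.87% with PE-CUR. Fyn held 11.8% to 12.8% in LPS and 9.77% to 11.5% with PE-CUR, and Lck 2.53% to 3.45% and 4.72% to 5.26%. The summed level was 84.0 to 86.4 FPKM in LPS and 66.7 to 70.7 FPKM with PE-CUR, a smaller relative difference than that of Src itself. FPKM of Csk over that sum was 0.314 ± 0.00435 in LPS and 0.648 ± 0.0357 with PE-CUR, and Csk over Src alone was 3.59 ± 0.211 and 36.0 ± 3.18. Btk over Syk was 0.869 ± 0.0211 and 1.90 ± 0.160. These ratios were not tested, since they rest on the members already described. They are ratios of transcripts, and protein, phosphorylation and kinase activity were not part of these data.

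**Figure D4:**
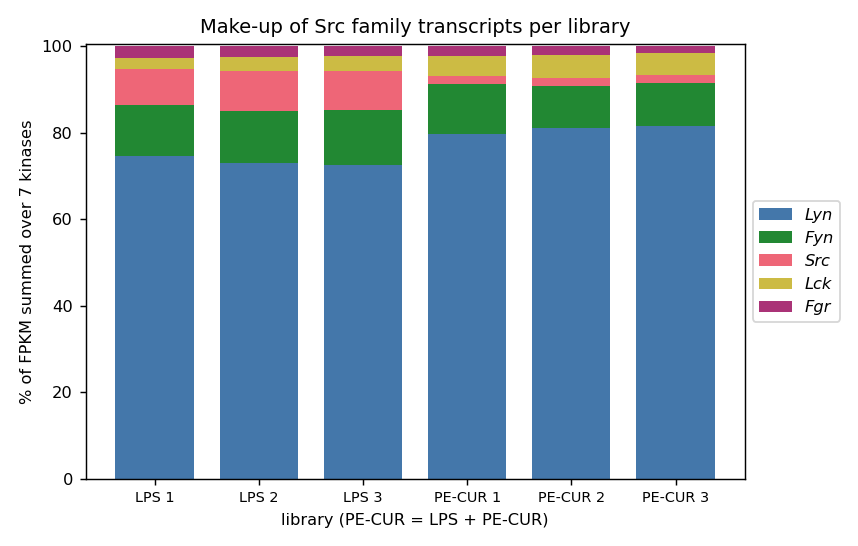
Share of each kinase in the FPKM summed over 7 Src family kinases in each library, as stacked bars from 0 to 100%; Yes1 and Blk are too low to be seen. The Src segment is 8.19% to 9.21% in the LPS libraries and 1.74% to 1.87% in those with PE-CUR, and Lyn holds at least 72.5% in each.

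The genes around these kinases were taken from lists of their partners. For every list, the counts of calls stand against 30.8% of all tested genes called higher and 32.7% called lower. Of 15 regulators of the Src family switch, all tested, 7 rose, 6 fell and 2 did not pass (median log2 fold change 0.09, against -0.03 for all tested genes). The number that rose was 3 to 4 with library size alone and in the fits of FPKM. Ptpn6, the phosphatase SHP-1 that ITIM receptors recruit, rose from 153 ± 4.63 to 439 ± 20.1 CPM (edgeR adjusted p = 2.53e-08, log2 fold change 1.52 with an SE of 0.06). Ptpn1 rose to 1.28-fold of its LPS level, and Ptpn2 to 1.23-fold. The Ptpn2 call ended in 7 of the alternatives with more than 1 treated library. Cbl, a ubiquitin ligase of activated kinases, rose 1.19-fold, while its relative Cblb fell from 33.1 ± 1.75 to 16.8 ± 0.590 CPM. Ptpn22, a Csk partner that dephosphorylates Src family kinases, fell from 434 ± 5.87 to 329.6 ± 14.0 CPM, and Ptpn12 from 168 ± 5.17 to 125 ± 3.73 CPM. Ptprc (CD45) averaged 339 ± 24.7 CPM in LPS and 288 ± 63.9 CPM with PE-CUR, which missed the threshold (edgeR adjusted p = 0.267, log2 fold change -0.24). It passed as lower without LPS plus PE-CUR replicate 2 (-0.38).

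Of 15 listed ITAM adaptors and receptors coupled to Syk, 12 were tested: 1 rose, 7 fell and 4 did not pass (median log2 fold change -1.10). Among those that fell, Fcgr3, an activating IgG receptor, went from 119 ± 15.5 to 14.2 ± 4.70 CPM. Clec7a (dectin-1, a receptor of fungal glucan) went from 9.01 ± 2.23 to 0.777 ± 0.114 CPM and Clec4n (dectin-2) from 3.09 ± 0.548 to 1.11 ± 0.141 CPM. Clec4e (Mincle), the member that rose, went from 219 ± 5.32 to 293 ± 36.3 CPM. The adaptors themselves missed the threshold. Tyrobp (DAP12) averaged 198 ± 14.8 CPM in LPS and 202 ± 12.6 CPM with PE-CUR (95% interval of the log2 fold change -0.12 to 0.19). Fcer1g averaged 217 ± 10.3 and 211 ± 19.5 CPM (-0.20 to 0.12), and the sign of either adaptor's change turned under some alternatives.

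Of 16 listed ITIM receptors, which recruit Ptpn6 and related phosphatases, 15 were tested: 3 rose, 8 fell and 4 did not pass (median log2 fold change -0.73). The share called among all tested genes was 63.4%. Cd300a fell 8.95-fold from 141 ± 6.74 to 15.7 ± 0.435 CPM, with Pirb and Pilra falling 4.40-fold and 2.96-fold. Clec12a rose from 8.41 ± 0.816 to 23.5 ± 1.37 CPM and Cd72 from 160.0 ± 18.5 to 295 ± 20.7 CPM. Pecam1 rose from 1.07 ± 0.188 to 2.05 ± 0.924 CPM. That call ended with limma-voom, the 3 fits of FPKM, the replicate block and 5 of the 6 fits without a library. Within the 4 libraries that hold hepatocyte transcripts the Pecam1 value was 0.07 on the log2 scale.

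Of 27 effectors of Syk and Btk, all tested, 8 rose, 11 fell and 8 did not pass (median log2 fold change -0.03). These counts are near the shares of all tested genes, 30.8% called higher and 32.7% lower. The adaptor genes Lat and Lat2 fell 6.34-fold (25.1 ± 2.70 to 3.98 ± 1.12 CPM) and 1.61-fold, and Vav3, a guanine nucleotide exchange factor, fell from 144 ± 4.54 to 90.4 ± 2.92 CPM. Pik3cd, a leukocyte phosphoinositide kinase, rose from 39.7 ± 1.67 to 69.8 ± 9.20 CPM, Gtf2i, a substrate of Btk, 1.64-fold, and Lcp2 (SLP-76) 1.54-fold. Card9, which carries Syk signals to NF-kB, rose 1.34-fold and Inpp5d (SHIP1), a phosphatase that opposes Btk at the membrane, rose from 156 ± 5.75 to 214 ± 16.1 CPM. Plcg2, the direct target of Btk, averaged 131 ± 1.86 CPM in LPS and 141 ± 4.77 CPM with PE-CUR, which missed the threshold (edgeR adjusted p = 0.101, log2 fold change 0.11). Leaving out LPS plus PE-CUR replicate 2 brought it past the threshold (0.18), as did leaving out mitochondrial and the 10 most abundant genes (0.14).

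Of 29 listed adhesion partners of Src, 28 were tested: 5 rose, 14 fell and 9 did not pass (median log2 fold change -0.25). Among all tested genes 63.4% were called. Itgb3, the integrin chain through which Src is activated in osteoclasts, stood at 49.5, 58.8 and 61.1 CPM in LPS and at 8.62, 9.07 and 10.2 CPM with PE-CUR. It fell 6.08-fold (edgeR adjusted p = 3.16e-08, log2 fold change -2.60 with an SE of 0.10), close in size to Src. Ptk2b (PYK2), a kinase that binds Src in osteoclast podosomes, fell from 289.6 ± 16.6 to 214 ± 13.8 CPM (edgeR adjusted p = 1.55e-04, a log2 fold change of -0.44). Afap1, an actin-binding partner of Src, fell 5.43-fold and the scavenger receptor gene Cd36 2.69-fold. Wasf2, Fyb and Hcls1, which act on the actin network, rose 1.44-fold, 1.44-fold and 1.40-fold.

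**Figure D5:**
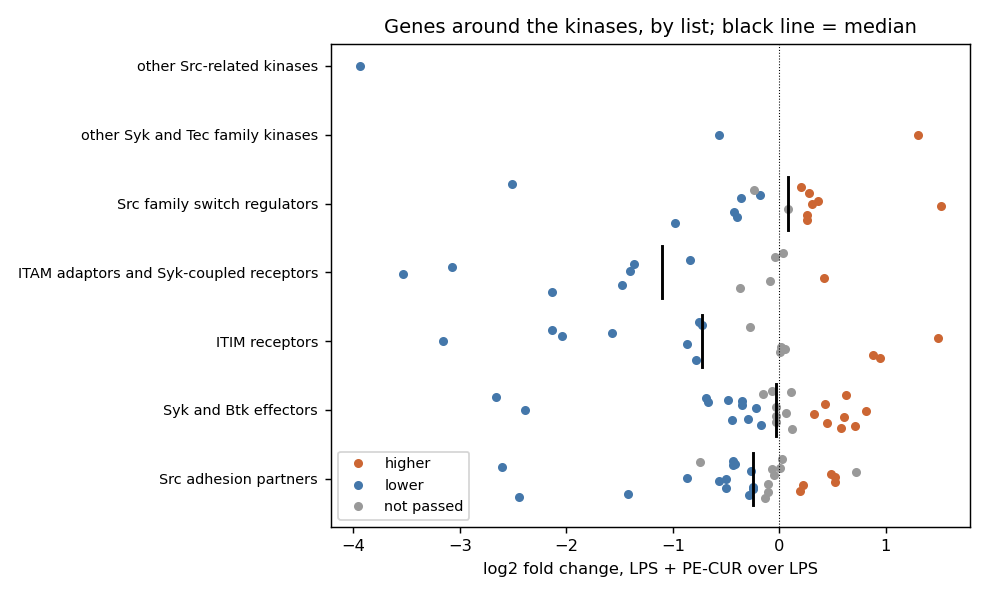
Log2 fold change of LPS plus PE-CUR over LPS for each tested gene of 7 lists of kinases, regulators, receptors and effectors. Points are coloured by call at an adjusted p of 0.05. Black lines are medians, not drawn for the lists of other Src-related kinases and of other Syk and Tec family kinases. The medians of the receptor lists lie at -1.10 and -0.73, and those of regulators and effectors at 0.09 and -0.03.

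By likeness over the 6 libraries (Pearson's r of log2 CPM), the tested genes closest to Src were Ppp2r5b, Orai1 and Tmod1, with r of 0.9997 or more. Those closest to Syk were Zbtb7b, Dbn1 and Rgs12, and those closest to Btk were Hira, Brd8 and Msto1. The libraries fall into 2 separate groups, so this measure mostly reflects the difference between groups: r exceeded 0.95 with Src for 2227 of 13013 other genes, with Syk for 1547 and with Btk for 2229.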

How the data were processed

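The submitters' processing notes name build mm10 and the tools DESeq2, SAMtools, HTSeq and fastp. Their versions, the aligner, the annotation and the strand setting were not given in the sources used here. The authors deposited whole-number counts per gene symbol, and FPKM values that equal the count per gene length and library total in 100% of values above 0 (relative tolerance 1e-04). Column names equal sample titles; groups follow the treatment labels, since the shared protocol text names both agents for all 6 samples. Nothing says that replicates were separate cultures, so the p-values reflect only the spread among these 6 samples, which may be technical.

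Counts were fitted in R 4.3.3 with edgeR 4.0.16 (filterByExpr, TMM, robust quasi-likelihood, group as the only term, all genes, two-sided, threshold 0.05), tested on simulated data. The SE is the fold change over the root of F, and 95% intervals use the fit's degrees of freedom. Alternatives were other scalings, other filters on low counts, DESeq2 1.42.0, limma 3.58.1 (voom on counts, and log2(FPKM + 1) or log2(FPKM + 0.1)), a replicate block, each library left out, and mitochondrial and the 10 most abundant genes left out. The fit within the 4 libraries that hold hepatocyte transcripts, with 1 treated library, was added after seeing the data. Exons of Lyn, Lck and Yes1 overlap Gm26857, Mir8119 and Gm10461 in GENCODE M21, so their reads cannot be told apart with certainty. RefSeq of GRCm38.p6 gave coordinates (20996 of 21604 symbols found). Coding sequences were translated and aligned with Biopython 1.88 (BLOSUM62, gap open 11, extend 1) in place of a protein table. The members and lists were chosen with earlier results of these data known. Some genes are not reported here, and sums and marker lists were computed without them. Beside the members and 8 fixed genes, each list's named genes are up to 3 called in each direction with the largest fold change and a mean of at least 1 CPM. Intervals and floors cover counting error only where stated.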

Additional observations from a re-analysis of the deposited data

How the results depend on the processing

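In the alternatives with more than 1 treated library the members that rose numbered 2 to 3 and those that fell 4 to 5. The share of all tested genes called in the same alternatives ran from 37.2% (limma on log2(FPKM + 1), no filter) to 66.9% (filter at a mean of 1 CPM). Src, Fgr, Fyn, Syk, Btk and Csk kept their call in each alternative with more than 1 treated library and their direction in all 18. Src lay between -2.59 and -1.92 on the log2 scale (-1.92 with log2(FPKM + 1), whose pseudocount shrinks low genes). The fit within the 4 libraries that hold hepatocyte transcripts, with 1 treated library, is among the 18 and gives an effect size only. Lyn passed as lower with library size alone (-0.17), a filter at a mean of 1 CPM (-0.15) and limma on FPKM with a pseudocount of 1 (-0.17), of 0.1 (-0.17) and of 1 without a filter (-0.17); within the 4 libraries that hold hepatocyte transcripts, with 1 treated library assumed to vary like the others, it was 0.00508. The Lck call ended with limma on log2(FPKM + 1) without a filter (0.31) and without LPS replicate 1; over the 6 fits without a library it ranged from 0.36 to 0.58. The cause of these shifts was not tested.

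For other named genes and list counts, alternatives were applied after seeing the data. The Tyrobp log2 fold change turned below 0 with library size alone (-0.0254), the 1 CPM filter (-0.00126) and the 3 fits of FPKM (-0.0232 in each). The Fcer1g log2 fold change turned above 0 with no filter (0.0160), within the 4 libraries (0.14) and in 4 of the 6 fits without a library (range over the 6 from -0.0847 to 0.0550). Same-numbered libraries did not deviate together (r from -0.18 to -0.05), and 0 of 6 correlated best with their own number. With the replicate number as a replicate block 7661 genes (58.9% of those tested) were called, 3 members rose and 4 fell. Yes1 was near 0 in all libraries and fell below the filter. With no filter its log2 fold change was 2.87 (edgeR adjusted p = 0.0849).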
